A study of Mus musculus with 6 samples.

Results

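A set of 10 genes was examined across single nuclei of mouse intestinal organoids: the Notch receptors Notch1 and Notch2, the ligands Dll1, Dll4 and Jag1, the DNA-binding partner Rbpj, its coactivators Maml2 and Maml3, the target Hes1 and the secretory fate factor Atoh1. They were taken as a fixed list of symbols, chosen with earlier results of these data known, and all 10 were found among the 31319 genes of the count matrices. The organoids were epithelial cultures grown from jejunal crypts of C57BL/6 mice aged 8 to 12 weeks. They were kept in medium conditioned by quiescent mouse embryonic fibroblasts (QCM) or by senescent ones (SCM), with 3 samples per medium. The study used X-ray irradiation or doxorubicin to make fibroblasts senescent and serum deprivation to make them quiescent. Which agent was used for these samples and how long these cultures ran is not given in the sources used here, nor do the labels say whether the samples of a medium came from separate mice. The study states in general that its replicates are mice unless otherwise indicated, without naming these libraries, so that p-values measure only the spread between these samples. The question asked of the 10 genes was where in the organoid each was expressed and whether its level differed between SCM and QCM.

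Notch signaling passes between touching cells. A ligand on 1 cell binds a receptor on its neighbor, the receptor is cut by proteases, and its inner fragment moves to the nucleus, where it joins Rbpj and a Mastermind-like coactivator to switch on targets such as Hes1. In the intestinal crypt Hes1 represses Atoh1, so that cells with active Notch stay progenitors or become absorptive, while cells that escape it express Atoh1, show Dll1 and Dll4 to their neighbors and become goblet, Paneth, enteroendocrine or tuft cells.

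The 6 libraries held 38154 nuclei and between 4071926 and 41035733 UMIs each, a UMI being 1 counted RNA molecule. SCM replicate 1 was the smallest, with 430 nuclei, and 7 nuclei of cluster 14 carried 32.2% of its UMIs. It also shared 175 barcode sequences with QCM replicate 1, which is 40.7% of its nuclei, whereas no other pair of libraries shared more than 0.358%. Results were therefore also computed without these nuclei and without that library. The deposited clusters 0 to 14 carry no names. By fixed marker lists, cluster 6 was goblet-like (7 of 8 goblet markers at 2-fold or more above the remaining nuclei, with 4 of 8 Paneth markers also at that level but none among its 10 leading genes), cluster 7 was fetal-like (6 of 9), cluster 8 enterocyte-like (6 of 10), clusters 9 and 10 enteroendocrine-like (10 and 6 of 10) and cluster 11 tuft-like (6 of 8). Clusters 0 to 5 and 12 to 14 were left unnamed. Among them, cluster 1 (8110 nuclei) held markers of several types (6 of 10 enterocyte, 4 of 8 Paneth and 3 of 8 goblet markers), with enterocyte and Paneth markers both among its leading genes. Fibroblast markers summed to between 0.56 and 4.52 counts per 1000000 counts (CPM) over the 6 libraries, immune markers to between 2.18 and 3.66 and endothelial markers to between 3.21 and 9.08, so the defining genes of these cells were near 0 in both media.

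Levels below are CPM, the share of a library's UMIs that fell on a gene times 1000000. Within a cluster they are means over the samples with at least 10 nuclei of that cluster, and cluster levels are a description with no test, since the clusters were built from the same RNA. Because counting of intron reads is not stated in the sources used here and the genes differ greatly in length, levels were compared between clusters and samples but not between genes. Lengths run from 2.121 kb for Atoh1 (chromosome 6, 64729125 to 64731245, GRCm38) and 3.413 kb for Hes1 (chromosome 16, 30064384 to 30067796) to 411.432 kb for Maml2 (chromosome 9, 13297957 to 13709388) and 419.17 kb for Maml3 (chromosome 3, 51685907 to 52105076).

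Atoh1 was concentrated in 1 cluster. This basic helix-loop-helix factor starts the secretory program. Its mean level in the goblet-like cluster 6 was 17.4 CPM ± 4.20 (SD, n = 6 samples), with 134 of its 370 UMIs, and the next highest was cluster 4 with 3.24 ± 4.05 (n = 6). The gap of 14.2 CPM between these neighbors exceeded their pooled SD of 4.12, and no other pair of neighbors in the order of clusters differed by more than its spread. The lowest sample of cluster 6, at 13.3 CPM, lay above the highest sample of every other cluster, which was 10.3 CPM in cluster 4. No Atoh1 UMI was counted in the tuft-like cluster 11. The enteroendocrine-like clusters 9 and 10 held 8 and 3 Atoh1 UMIs, at 2.48 ± 2.32 and 2.30 ± 3.54 CPM (n = 5 each).

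The 3 ligands differed in where they were highest: Dll1 in the goblet-like cluster 6, Dll4 in the enteroendocrine-like cluster 9 and cluster 6, and Jag1 in the fetal-like cluster 7. Dll1, a Delta ligand of the crypt like Dll4, stood at 33.8 CPM ± 12.9 in cluster 6, with values per sample from 18.7 to 48.7, and at 15.9 ± 15.2 in cluster 13, the next in order (6 UMIs, n = 4). In the enteroendocrine-like clusters it was at 10.7 (cluster 9) and 6.08 CPM (cluster 10, the lowest of all), and the tuft-like cluster 11 (12.0) lay below the enterocyte-like cluster 8 (15.4). Dll4 was highest in the enteroendocrine-like cluster 9 at 10.0 CPM ± 6.71 (33 UMIs), then in cluster 6 at 7.80 ± 3.26 (65 UMIs) and in cluster 10 at 7.08 ± 6.04 (10 UMIs). These neighbors did not differ beyond their spread, and below the tuft-like cluster 11 (5.40 ± 3.14) and cluster 12 (3 UMIs) all clusters averaged under 3 CPM. Jag1 was highest in the fetal-like cluster 7 at 60.8 CPM ± 37.4, where the 6 samples ranged from 26.0 to 130.8, against 32.6 ± 10.7 in the enterocyte-like cluster 8. In the other clusters it lay between 12.5 and 30.1 CPM, with 21.0 ± 4.72 in cluster 6.

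**Figure D1:**
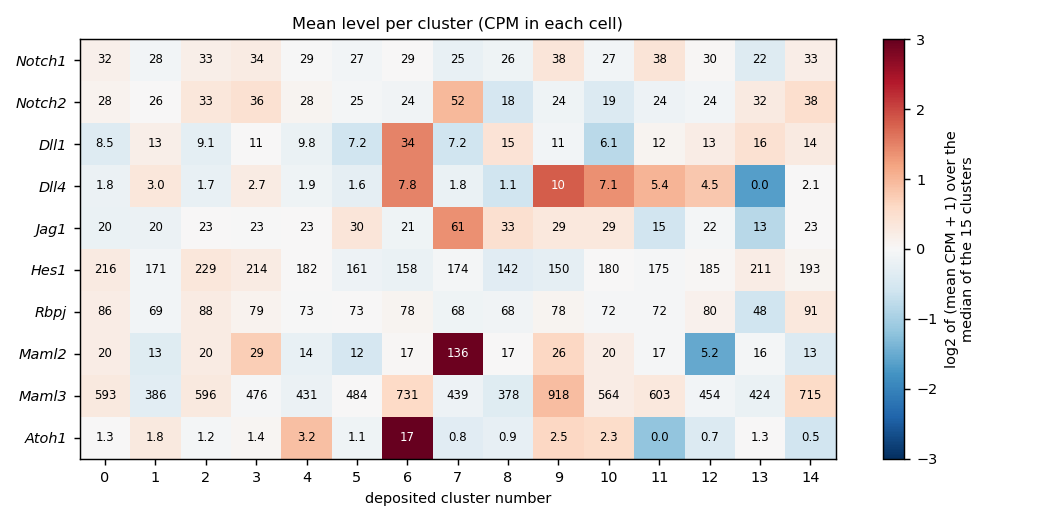
Mean level of the 10 genes in each deposited cluster, as CPM printed in each cell and as color for the log2 of the mean CPM plus 1 over the gene's median cluster. Atoh1 and Dll1 stand above the next cluster by more than the spread in cluster 6 (17.4 and 33.8 CPM), and Maml2 and Jag1 do so in cluster 7 (136.1 and 60.8 CPM). Hes1, Notch1, Notch2 and Maml3 have no neighboring clusters that differ beyond their spread.

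The receptors were broad. Notch1 ranged from 21.97 CPM in cluster 13 to 38.1 in the tuft-like cluster 11, and no neighboring clusters differed beyond their spread. Notch2 was highest in cluster 7 at 51.9 CPM ± 18.1 and lowest in the enterocyte-like cluster 8 at 18.1 ± 4.91. In each library, Notch2 UMIs in cluster 7 were between 3.65% and 27.3% of all its UMIs, the highest share being that of SCM replicate 2.

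Of the nuclear complex and its target, Maml2 differed most between clusters. Hes1, a repressor of Atoh1 in this tissue, was detected in all clusters, from 142.3 CPM ± 59.6 in the enterocyte-like cluster 8 to 229.0 ± 77.3 in cluster 2. Cluster 6, where Atoh1 was highest, had 158.0 ± 60.5, and the enteroendocrine-like cluster 9 had 150.5 ± 81.8. These values lie at the low end of the order, and none of the 14 neighboring pairs differed by more than its pooled SD. That comparison covers neither the ends of the order nor the values within a library. In the QCM samples Hes1 was at 251.9, 91.4 and 113.5 CPM in cluster 6 and at 347.4, 144.8 and 167.3 CPM in cluster 2. In the SCM samples it was at 196.9, 121.5 and 172.5 against 267.7, 182.1 and 264.5 CPM, so every library had less in cluster 6 than in cluster 2. Rbpj, the DNA-binding subunit, was between 47.9 (cluster 13, 21 UMIs) and 91.2 CPM (cluster 14). Maml3 was highest in clusters 9 and 6, at 917.8 ± 209.3 and 731.2 ± 175.8 CPM, against a median cluster of 483.9. Maml2 stood at 136.1 ± 78.8 CPM in cluster 7, where the samples ran from 48.5 to 280.6, and at 28.7 ± 23.7 in cluster 3, the next in order. The gap of 107.5 CPM exceeded the pooled SD of 58.2.

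Over the 13 clusters with enough nuclei, the genes most similar to each member in mean log2(CPM + 1) were listed by rule, and these Pearson correlations across clusters share libraries and are descriptive. Maml2 was most like Iffo2 (r = 0.97), Gclc (0.94), which encodes a subunit of the glutathione-making enzyme, and Wwtr1 (0.93), which encodes the Hippo pathway effector TAZ. Jag1 was most like Rab31 (0.94), Fosl2 (0.94), an AP-1 factor, and Paqr8 (0.93). Notch2 was most like Met (0.90), the hepatocyte growth factor receptor, Erfe (0.87) and Anapc15 (0.84). Dll4 was most like Hepacam2 (0.97), Pex5l (0.96) and Gm609 (0.92), and Atoh1 like Tpsg1 (0.94), Irak3 (0.93) and Calcrl (0.89). Dll1 was most like Kctd14 (0.87), Tmem183a (0.82) and Tspan13 (0.81). Hes1 was most like Aurkb (0.93), a mitotic kinase, Ecm2 (0.92) and Hells (0.91), a chromatin remodeler of dividing cells. Notch1 was most like Cntrl (0.90), Zfp62 (0.85) and Rasgrf2 (0.85), Rbpj like Xpo4 (0.96), Epc1 (0.94) and Ctdspl2 (0.94), and Maml3 like Nisch (0.95), Mycbp2 (0.95) and Mid1 (0.94). Among the members themselves, the closest pairs were Dll4 with Maml3 (r = 0.76), Dll1 with Atoh1 (0.74), Notch2 with Maml2 (0.69), Notch1 with Maml3 (0.69) and Jag1 with Maml2 (0.66).

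Between the media, Maml2 had the largest difference of the 10 genes. It stood at 6.85, 9.64 and 15.01 CPM in QCM replicates 1, 2 and 3 (281, 234 and 299 UMIs) and at 47.6, 68.0 and 26.6 CPM in SCM replicates 1, 2 and 3 (194, 1413 and 714 UMIs). All SCM samples thus lay above all QCM samples, with group means of 47.4 ± 20.7 and 10.5 ± 4.15 CPM. The log2 fold change of SCM over QCM was 2.03 ± 0.37 (SE), with an unadjusted p of 0.00069 in edgeR, but the Benjamini-Hochberg adjusted p over 19046 genes was 0.927. DESeq2 gave the same fold change with an adjusted p of 0.00060. The call therefore depends on the tool: edgeR called 0 genes (0.00%) of the whole table, 866 (4.55%) having an unadjusted p under 0.05, while DESeq2 called 21, of which 20 (0.105%) were higher in SCM, Maml2 among them. In bulk sums, more nuclei with high Maml2 and more Maml2 RNA per nucleus cannot be told apart.

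Notch2 was the other member whose groups did not overlap. It measured 19.2, 27.1 and 25.3 CPM in the QCM samples and 46.4, 42.2 and 32.6 CPM in the SCM samples (23.8 ± 4.13 against 40.4 ± 7.08), with a log2 fold change of 0.60 ± 0.17 (edgeR, adjusted p = 0.927). Such full separation upward was found for 950 genes, or 4.99% of those tested, and downward for 399, or 2.09%, while 2 of 10 members separated upward and none downward. Since the members were chosen with earlier results of these data known, their count beside these shares is a description and not a test.

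**Figure D2:**
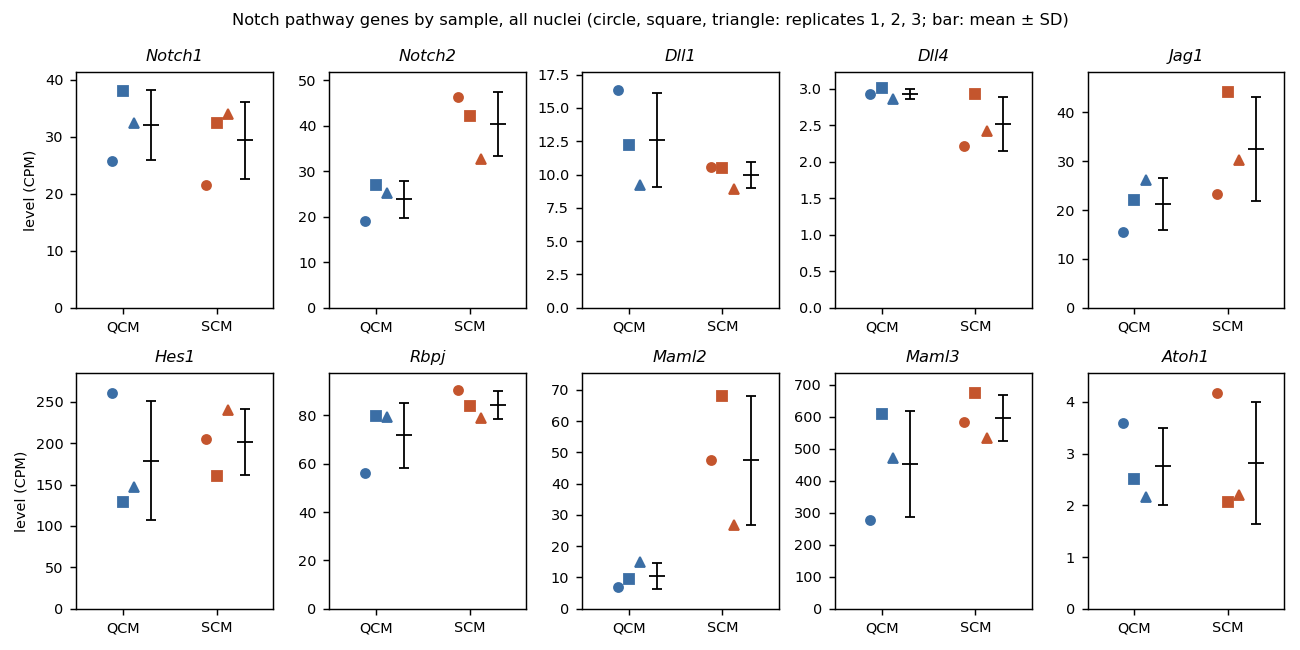
Level of each gene (CPM, linear axis from 0) over all nuclei of the 3 QCM and 3 SCM samples, with the mean ± SD beside the points. Maml2 and Notch2 are the genes whose 3 SCM points (26.6 to 68.0 and 32.6 to 46.4 CPM) lie above all QCM points.

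The other ligands and receptors overlapped between the media. Jag1 was at 15.5, 21.99 and 26.2 CPM in QCM and at 23.3, 44.1 and 30.2 CPM in SCM, the highest value being that of SCM replicate 2 (log2 fold change 0.48 ± 0.27, or 0.22 without that sample and 0.24 without cluster 7). Dll1 went the other way, at 16.3, 12.2 and 9.23 CPM in QCM and 10.6, 10.5 and 8.88 CPM in SCM (−0.54 ± 0.31, or −0.15 without QCM replicate 1). Dll4 differed little, at 2.92, 3.01 and 2.86 CPM against 2.21, 2.93 and 2.43 CPM (−0.37 ± 0.32, or −0.24 without QCM replicate 1), and rested on 9 UMIs in SCM replicate 1. Notch1 was at 25.7, 38.0 and 32.4 CPM in QCM and 21.6, 32.4 and 34.0 CPM in SCM (−0.25 ± 0.22, or −0.072 and −0.42 when SCM replicate 1 or 3 was left out). None of these passed the edgeR test, with adjusted p-values of 0.927 or 0.929.

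Hes1 and Atoh1, the 2 ends of the fate switch, did not separate by medium either. Hes1 was at 261.1, 128.6 and 147.1 CPM in QCM and at 205.3, 160.6 and 239.8 CPM in SCM, with a log2 fold change of −0.04 ± 0.37 (adjusted p = 0.994). QCM replicate 1 held the highest value. The sign turned without that sample (0.51) or SCM replicate 2 (0.11) and with scaling to library size alone (0.17). Atoh1 was at 3.58, 2.51 and 2.16 CPM in QCM and at 4.17, 2.07 and 2.20 CPM in SCM (147, 61 and 43 against 17, 43 and 59 UMIs), a log2 fold change of −0.24 ± 0.44 (adjusted p = 0.948), although the group means were 2.75 and 2.81 CPM. The value was 0.16 without QCM replicate 1, −0.55 without SCM replicate 1, −0.048 without SCM replicate 2 and −0.032 with library size alone. The log2 ratio of Hes1 to Atoh1 UMIs, which needs no scaling between samples, averaged 5.96 ± 0.27 in QCM and 6.18 ± 0.60 in SCM, a difference of 0.21, or −0.071 without SCM replicate 3 (two-sided exact permutation test, p = 0.6, where 3 samples against 3 cannot go below 0.1). Rbpj was at 56.3, 79.7 and 79.5 CPM against 90.4, 83.9 and 78.8 CPM (0.08 ± 0.15, and 0.038 to 0.12 with single samples left out). Maml3 was at 278.7, 609.4 and 471.3 CPM against 583.3, 676.0 and 532.7 CPM (0.27 ± 0.25, or 0.10 and 0.46 when QCM replicate 1 or 2 was left out and 0.18 without SCM replicate 2). Neither Rbpj nor Maml3 passed the test. For Maml3, SCM replicates 1 and 3 were below QCM replicate 2.

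The share of nuclei in which Atoh1 was seen was low in every sample. Nuclei with at least 1000 UMIs were thinned to that depth and the shallower ones were left out (0, 490 and 1876 in the QCM samples and 106, 228 and 479 in the SCM samples). Among those kept, an Atoh1 UMI was found in 0.422%, 0.255% and 0.278% of QCM nuclei and in 0.926%, 0.313% and 0.232% of SCM nuclei. The first SCM value rests on 3 of 324 nuclei (Wilson 95% interval 0.315% to 2.69%). The means differed by 0.172 percentage points (exact permutation test, p = 0.7), and without SCM replicate 1 by −0.046. Thinning to 2000 UMIs left out 0, 2988 and 6860 nuclei in the QCM samples and 195, 1433 and 5620 in the SCM samples. The shares were then 0.686%, 0.506% and 0.548% in QCM and 0%, 0.445% and 0.403% in SCM. The first SCM value is 0 of 235 nuclei, which allows up to 1.28%. There all SCM samples lay below all QCM samples (difference −0.297 percentage points, exact permutation test, p = 0.1, the smallest possible). The difference was also negative at 500 UMIs (−0.035) and without thinning (−0.306). Without thinning depth was not equal, and QCM replicate 1, with a median of 8260 UMIs per nucleus, had the highest share. The difference was positive at 1000 UMIs with SCM replicate 1 included. Its sign thus depended on the depth and on SCM replicate 1, and no direction was given to it. The nuclei were thinned in a single random draw at each depth. Before thinning the shares were 3.40%, 0.719% and 0.404% in QCM and 2.33%, 0.776% and 0.508% in SCM. At 1000 UMIs Atoh1 was found in 2.27% to 3.11% of the nuclei of cluster 6 in 5 samples and in 1 of 15 nuclei (6.67%) in SCM replicate 1, compared with 1 of 187 nuclei of the enterocyte-like cluster 8 in QCM replicate 1 and 0 in that cluster of the other 5 samples (0 of 484 nuclei in SCM replicate 3, which allows up to 0.620%). Median UMIs before thinning were 2040 in cluster 6 and 2037 in cluster 8 of that sample.

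Within the clusters fitted, the Maml2 difference had the same sign throughout. Maml2 passed the count filter in 8 of the 13 clusters fitted, and in all 8 its log2 fold change of SCM over QCM was positive, from 0.99 in cluster 2 to 2.24 in cluster 3, with unadjusted p-values under 0.05 in each. A cluster can pass this filter through the SCM samples, where Maml2 was higher, so the count of 8 is partly set by the filter. In cluster 5, for example, Maml2 was at 6.20, 7.42 and 3.30 CPM in QCM and at 19.5, 16.1 and 17.7 CPM in SCM. Without the filter the sign was positive in all 13 clusters fitted, from 0.51 to 2.24. Clusters 13 and 14 had too few samples to be fitted. There Maml2 averaged 18.8 and 13.2 CPM in QCM and was at 8.72 and 11.3 CPM in the 1 SCM sample with enough nuclei (1 and 6 UMIs). In cluster 3 Maml2 was at 5.31, 9.61 and 12.0 CPM in QCM and at 64.7, 45.8 and 34.5 CPM in SCM. In the goblet-like cluster 6 it was at 4.16, 6.05 and 16.1 against 16.7, 31.7 and 28.9 CPM, and in the fetal-like cluster 7 at 48.5, 113.0 and 94.7 against 130.2, 280.6 and 149.7 CPM. The groups did not overlap in these 3 clusters, whereas in cluster 2 SCM replicate 3 (18.1 CPM) lay below QCM replicate 3 (20.97 CPM). The value of SCM replicate 1 in cluster 6, just above that of QCM replicate 3, rests on 5 UMIs in 15 nuclei. In cluster 5 its value rests on 2 UMIs in 20 nuclei. The share of all genes that separate within a cluster was not computed, so these separations have no background to be read against. Without QCM replicate 1 the sign was positive in 9 of 10 clusters. After adjustment over the genes of each cluster none of the 89 member and cluster pairs was called by edgeR, as was the case for all 130109 gene and cluster pairs (0.00%). Of the 89 pairs, 10 had an unadjusted p under 0.05, against 5.76% of all pairs, a description only, since the members were chosen with earlier results known. These 10 were the 8 Maml2 pairs and Notch2 in clusters 3 and 7. DESeq2 called 0 member pairs and 39 of all 130109 pairs. Without the filter on low counts edgeR called Maml2 in clusters 1, 3, 6, 7 and 8, in a fit that called 0.984% of 318724 pairs.

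Notch2 was higher in SCM in 9 of the 10 clusters tested. In cluster 7 it was at 29.8, 34.8 and 44.7 CPM in QCM and 71.6, 70.5 and 59.8 CPM in SCM (log2 fold change 0.75 ± 0.26), and in cluster 3 at 23.5, 29.7 and 25.6 against 51.8, 51.7 and 36.1 CPM (0.64 ± 0.27). Jag1 had positive values in 11 of 11 clusters (0.14 to 0.60) and Maml3 in 13 of 13 (0.18 to 0.53). In every one of these 13 clusters QCM replicate 1 had the lowest Maml3 level of all samples. Rbpj had positive values in 10 of 13 (median 0.22, and 12 of 13 with library size alone) and Dll1 negative values in 6 of 7. None of the Jag1, Maml3, Rbpj or Dll1 pairs reached an unadjusted p of 0.05 in edgeR. Hes1 values were negative in 11 of 13 clusters with TMM scaling (median −0.11) but in 6 of 13 with library size alone (median 0.028), so no direction was given to them. Clusters share the same 6 libraries, so equal signs across clusters are not separate observations.

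**Figure D3:**
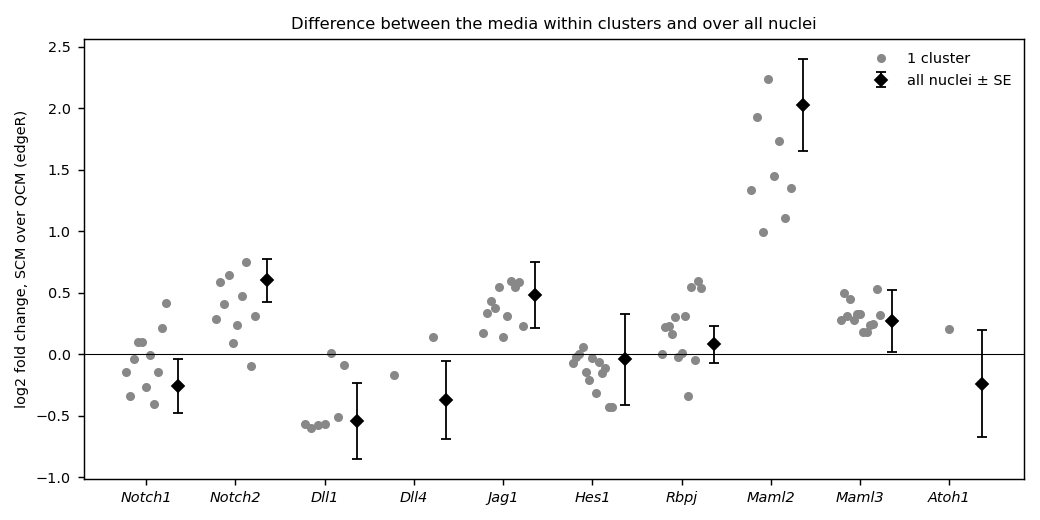
Log2 fold change of SCM over QCM (edgeR) for each gene within each cluster where it could be tested (gray points) and over all nuclei (black diamonds, ± SE). Maml2 is positive in all 8 clusters (0.99 to 2.24) and at 2.03 over all nuclei, whereas Hes1 (−0.43 to 0.06) and Notch1 (−0.40 to 0.42) lie on both sides of 0.

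The fetal-like cluster 7 held 1513 of the 3135 Maml2 UMIs, with unequal shares across samples. Cluster 7 made up 3.82%, 2.72% and 3.31% of nuclei in QCM and 3.95%, 4.06% and 4.84% in SCM, and 3.52%, 2.84% and 3.82% of UMIs against 3.77%, 16.4% and 7.93%. All SCM samples lay above all QCM samples in the share of nuclei, whereas in the share of UMIs SCM replicate 1 lay below QCM replicate 3. It held 24.9%, 33.3% and 24.1% of Maml2 UMIs in the QCM samples and 10.3%, 67.6% and 44.5% in the SCM samples, the lowest share of the 6 being that of SCM replicate 1. The summed fetal markers were at 101.8 to 178.5 CPM in QCM and at 254.0 to 784.7 CPM in SCM. Outside cluster 7, Maml2 was at 5.33, 6.61 and 11.8 CPM in QCM and at 44.4, 26.3 and 16.0 CPM in SCM, again without overlap. The share of all genes that separate there was not computed. The log2 fold change of Maml2 was 1.69 (edgeR, adjusted p = 0.932). Of the 194 Maml2 UMIs of SCM replicate 1, 101 (52.1%) came from 6 nuclei of cluster 14, 55 of them from a single nucleus. Without cluster 14 the log2 fold change was 1.91, without the shared barcodes 1.98, and without the 6% of nuclei with the most UMIs 1.47. The share of UMIs on ribosomal protein genes also differed, at 4.96% to 14.2% in QCM and 2.64% to 7.30% in SCM, and with it as a covariate the log2 fold change was 1.63 over all nuclei and 0.50 in cluster 7, where it was 1.11 without the covariate and 0.67 without SCM replicate 2. The part of these differences in the Maml2 values was not tested beyond the fits given.

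**Figure D4:**
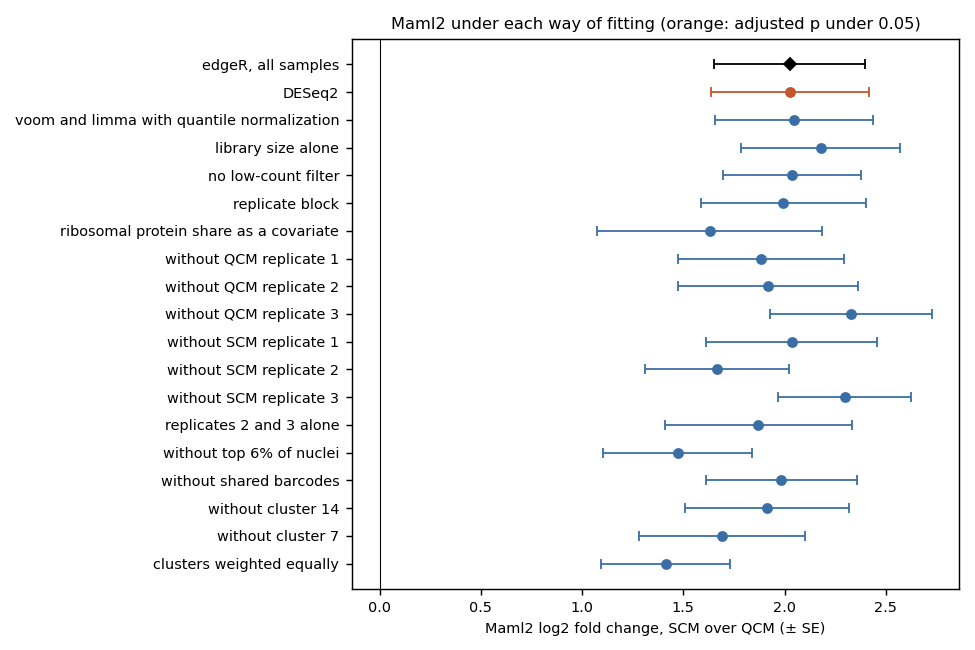
Log2 fold change of Maml2 between SCM and QCM over all nuclei (± SE) under the edgeR fit and 18 other ways of fitting. All values lie between 1.41 and 2.33, and DESeq2 alone gave an adjusted p under 0.05.

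Windows before start sites of the nuclear complex genes are shown because Rbpj, Maml2 and Maml3 were the members with a match to the core that Rbpj itself binds. RefSeq windows (GRCm38.p6) in the table used here were matched for 9 of the 10 genes, in 12 windows, and the 250 bases before each start site were searched for TGGGAA on both strands. It was present in 4 of the 12 windows, of which 2 are overlapping Rbpj windows that share 1 match, and in 21.6% of all 32851 windows of this length. The core bound by TEAD factors, GGAATG, was present in 2 of 12 member windows (Notch1 and Rbpj) and in 12.6% of all. The window of Hes1 was not analysed here. The 3 stretches are given 5′ to 3′ on the gene's strand, with the TGGGAA core or its complement TTCCCA in capitals, for Rbpj at chr5:53590096-53590345 (plus strand, matches ending 143 and 59 bases before the start), Maml2 at chr9:13662210-13662459 (plus strand, 139 bases before) and Maml3 at chr3:52105007-52105256 (minus strand, 179 bases before). The Rbpj and Maml2 windows precede internal start sites and lie inside the annotated gene spans (chromosome 5, 53466152 to 53657362, for Rbpj), and the window before the first Maml2 start held no match. A match describes letters and says nothing of binding.
Rbpj: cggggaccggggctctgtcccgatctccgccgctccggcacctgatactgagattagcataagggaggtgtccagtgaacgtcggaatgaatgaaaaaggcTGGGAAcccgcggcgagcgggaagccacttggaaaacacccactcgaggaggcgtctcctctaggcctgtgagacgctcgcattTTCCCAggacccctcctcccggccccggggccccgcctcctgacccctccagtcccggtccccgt
Maml2: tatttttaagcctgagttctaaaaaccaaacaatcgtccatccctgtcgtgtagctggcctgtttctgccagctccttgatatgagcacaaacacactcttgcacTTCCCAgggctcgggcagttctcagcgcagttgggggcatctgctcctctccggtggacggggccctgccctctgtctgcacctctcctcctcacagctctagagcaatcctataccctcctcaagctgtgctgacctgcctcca
Maml3: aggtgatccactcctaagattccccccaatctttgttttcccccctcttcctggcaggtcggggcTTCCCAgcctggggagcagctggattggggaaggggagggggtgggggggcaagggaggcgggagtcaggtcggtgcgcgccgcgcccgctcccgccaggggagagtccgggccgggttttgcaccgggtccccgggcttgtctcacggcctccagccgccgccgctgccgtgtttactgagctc

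Nuclei with a counted Atoh1 UMI were then compared with the other nuclei of the same sample. Free RNA can place a UMI in a nucleus that does not express the gene, so the groups are defined by the count and not by expression, and no background was subtracted. An Atoh1 UMI was seen in 129, 57 and 41 nuclei of the QCM samples and in 10, 39 and 55 nuclei of the SCM samples, and 19.4% to 50.9% of these lay in cluster 6, which held 3.49% to 5.83% of all nuclei. Nuclei with an Atoh1 UMI were deeper, with medians of 2205 to 33793.5 UMIs against 1576 to 8211.5, and the part of depth in the values below was not tested beyond the fits given. With the sample as a block, edgeR called 91 genes higher (0.728% of 12495 tested) and 20 lower, 0.888% in all. The total of 111 ran from 55 without SCM replicate 2 and 58 without QCM replicate 2 to 186 without SCM replicate 1 and 263 without QCM replicate 1. None of the 8 members tested was among them, and Dll4 did not pass the count filter. DESeq2 called 134 genes and again none of the members.

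Goblet genes were higher in nuclei with an Atoh1 UMI, while no tested Paneth, enteroendocrine or tuft marker was called. Of the 41 tested genes of a list of other Notch and fate genes, 3 were called and all 3 rose: Spdef, which drives goblet and Paneth maturation (log2 difference 2.47 ± 0.23, adjusted p = 1.0e-05, higher in 6 of 6 samples), Creb3l1, a factor of the secretory pathway (1.73 ± 0.22, adjusted p = 0.00016), and Foxa3 (0.72 ± 0.15, adjusted p = 0.023). Spdef averaged 57.0 ± 28.6 CPM in nuclei with an Atoh1 UMI and 8.90 ± 2.74 in the others (n = 6). Among goblet markers, 5 of the 7 tested rose: Ano7 (2.09), Fcgbp (1.66), the mucin gene Muc2 (1.58), Agr2 (1.30) and Spink4 (0.91). The markers tested without a call were those of Paneth (7), enteroendocrine (7), stem (7), enterocyte (10), fetal (6) and tuft cells (1). The calls of Foxa3 and Spink4 were lost without QCM replicate 2 or 3 or SCM replicate 2 or 3, and that of Muc2 without QCM replicate 2. Within cluster 6 alone, where 49 genes were called, Spdef (0.84), Fcgbp (0.72), Agr2 (0.88) and Spink4 (0.73) were still called, whereas Muc2 (0.50), Creb3l1 (0.50), Ano7 (0.37) and Foxa3 (0.59) were not. After thinning to 1000 UMIs, 3908 genes could be tested and 27 were called. Agr2, Fcgbp, Muc2 and Spink4 were tested there and still called. Spdef, Creb3l1, Foxa3 and Ano7 did not pass the count filter there, so they have no value at equal depth.

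**Figure D5:**
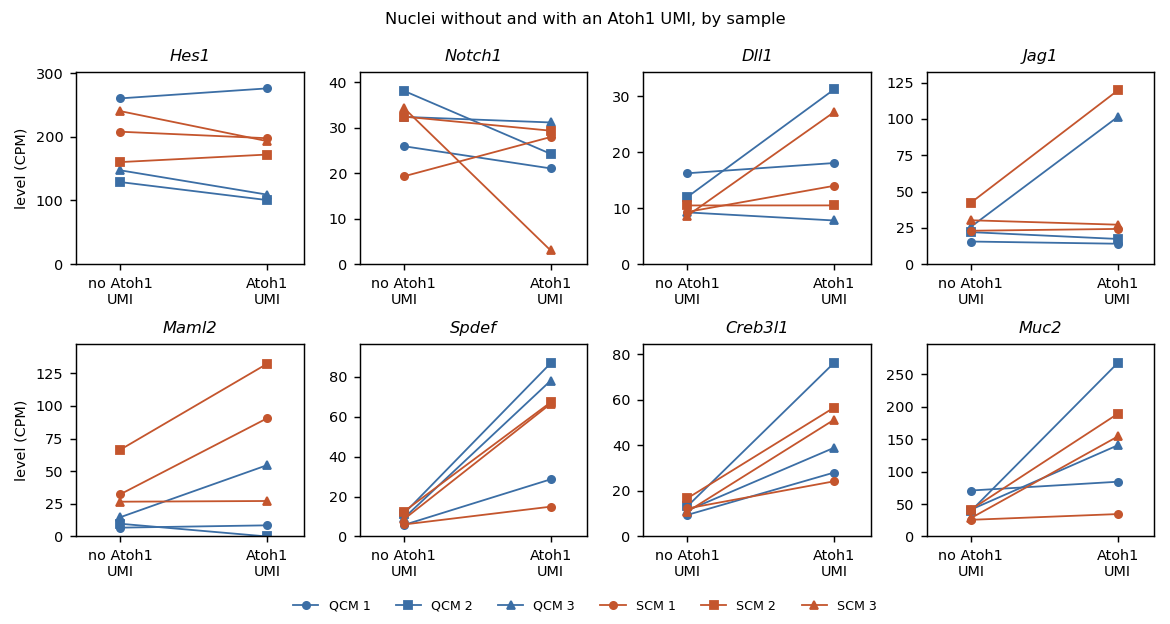
Level (CPM, linear axis from 0) of 8 genes in nuclei without and with an Atoh1 UMI, 1 line per sample. Spdef, Creb3l1 and Muc2 go up in all 6 samples, while Hes1 goes down in 4 and up in 2.

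Of the members tested, 0 were called. Hes1 averaged 174.8 ± 64.7 CPM in nuclei with an Atoh1 UMI and 190.9 ± 53.4 in the others, lower in 4 of 6 samples (log2 difference −0.18 ± 0.11, edgeR, adjusted p = 0.722). Without the 6% of nuclei with the most UMIs it was −0.42 ± 0.14 (edgeR, adjusted p = 0.0997). Notch1 was lower in 5 of 6 samples, at 22.8 ± 10.4 against 30.5 ± 6.74 CPM (−0.38 ± 0.25). Dll1 was higher in 5 of 6, at 18.1 ± 9.33 against 10.99 ± 2.83 CPM (0.56 ± 0.28, adjusted p = 0.622). Maml2 was higher in 5 of 6, at 52.2 ± 51.3 against 26.1 ± 22.1 CPM (0.78 ± 0.25, adjusted p = 0.255), but without the same deepest nuclei its difference was −0.57. Jag1 (0.49), Notch2 (0.24), Maml3 (0.07) and Rbpj (−0.09) had adjusted p-values of 0.645 to 0.977. Without the deepest nuclei Maml3 was called, at 0.37, in a fit that called 313 of 11162 genes. In that fit Notch1 was at −0.13, Notch2 at −0.56 and Jag1 at −0.23. Single libraries also moved these values: Notch1 was at −0.18 without SCM replicate 3 and −0.65 without SCM replicate 1, Jag1 at 0.16 without SCM replicate 2, Notch2 at 0.089 without SCM replicate 1, Dll1 at 0.35 without SCM replicate 3 and Maml2 at 0.51 without SCM replicate 1.

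The wider pathway list gave no call between the media. It held 61 other genes, of which 60 had a row and 53 were tested: 25 had higher and 28 lower fitted levels in SCM (35 and 18 with library size alone), with a median log2 fold change of −0.01, as over all genes (−0.01), and 0.02 over the members. DESeq2 also called 0. Insm1, an enteroendocrine fate factor, was the 1 gene of 53 with an unadjusted p under 0.05 (4.55% of all genes had one), at 5.90, 2.06 and 4.77 CPM in QCM and 0.74, 1.251 and 2.16 CPM in SCM (−1.72 ± 0.58, edgeR, adjusted p = 0.927). The gamma-secretase subunits Psenen (−1.16 ± 0.51) and Aph1a (−0.56 ± 0.26) had the next smallest p-values among lower genes. Among higher genes these were Notch3 (0.84 ± 0.40), the ubiquitin ligase gene Neurl1a (0.90 ± 0.59) and Dtx4 (0.29 ± 0.20). Notch3 was at 1.36, 3.17 and 3.41 CPM in QCM and 6.63, 5.72 and 3.43 CPM in SCM and was the 1 gene among the 53 tested whose groups did not overlap, beside 4.99% of all genes separated upward and 2.09% downward. By role, 13 of 16 secretory fate genes and 6 of 9 protease genes had lower fitted levels in SCM, and 7 of 8 nuclear partners and 7 of 10 genes of endocytosis and turnover had higher ones, beside 9792 lower and 9254 higher of all 19046 genes. With library size alone, 7 of 16 secretory fate genes and 5 of 9 protease genes were lower, beside 6842 lower and 12204 higher of all genes, so the secretory fate count turned with the scaling. Of the 4 tested genes that were listed as other targets, 3 had lower and 1 had higher fitted levels in SCM under both scalings. With TMM, Hes5 (55 UMIs in all) was at 0.19, Hes6 at −0.54, Nrarp at −0.50 and Olfm4 at −0.48. The median log2 fold change of these 4 was −0.49 with TMM and −0.31 with library size alone. Whether each of them, Hes6 among them, follows Notch activity in these cells was not tested. These counts carry no test, and all but Insm1 had an unadjusted p above 0.05. Summed enteroendocrine markers were at 147.6 to 226.0 CPM in QCM and 60.7 to 150.1 CPM in SCM, Paneth markers at 536.7 to 2677 and 342.2 to 585.2 CPM, and goblet markers at 830.5 to 2029 and 533.4 to 848.0 CPM, the highest Paneth and goblet sums being those of QCM replicate 1. Tuft markers, also secretory, were at 22.4 to 46.2 CPM in QCM and within that range in SCM (29.9 to 35.1 CPM). Enterocyte markers, which are absorptive, were at 1821 to 5535 CPM in QCM and 966.1 to 2421 CPM in SCM. The part of the cell mix in these values was not tested.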

How the data were processed

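Per the labels and the methods of the study, nuclei were isolated from frozen organoids, libraries were made with a 3′ droplet kit, reads were counted on mm10 (Cell Ranger 2.1.1 in the submitters' processing notes), and outlying nuclei were removed before deposit. The deposited matrices hold UMI counts per gene and nucleus, and cluster numbers came from the table deposited with them. A pooled count matrix and a pooled log matrix were not used. Symbols and coordinates came from GENCODE M21 (31244 of 31319 identifiers matched) and Ensembl identifiers were those of the files. The members and lists were chosen with earlier results of these data known.

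Pseudobulk sums of these counts, over all nuclei of a sample or over its nuclei in 1 cluster (at least 10 nuclei, and 2 samples per medium), were tested with edgeR 4.0.16 quasi-likelihood (TMM, filterByExpr at a minimum count of 10, Benjamini-Hochberg, threshold 0.05) in R 4.3.3. DESeq2 1.42.0, voom with limma 3.58.1, other normalizations and filters, and left-out libraries or nuclei were alternatives. Leaving out shared barcodes, cluster 14 or cluster 7 was chosen after seeing the data. Shares were compared by exact permutation in scipy 1.17.1, and their intervals and limits cover counting error only. No doublet caller was run, and the 6% of nuclei with the most UMIs were left out as an alternative. Named genes were all members, the 3 listed pathway genes with the smallest p in each direction where none was called, and the 3 genes most like each member across clusters among those with at least 20 CPM in a cluster. Clusters were named from at least 3 markers at 5 CPM and 2-fold, by the type with the most markers, and a cluster was left unnamed where its 10 leading genes held more markers of another type. Fits were tested on simulated counts with 200 changed genes.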

Additional observations from a re-analysis of the deposited data

Results flagged for a closer look

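In the comparison of nuclei with and without an Atoh1 UMI, 19 genes were examined for a sample far from the other 5, and 1 was found. Notch1 in SCM replicate 3 differed by −2.30 on the log2 scale (a pseudocount of 5 CPM), whereas the other samples lay between −0.56 and 0.44. The value rests on 1 Notch1 UMI in 55 nuclei. By chance about 1 in 20 groups would meet this criterion.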

How the results depend on the processing

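Most directions held. Over all nuclei, Maml2 ranged from 1.41 to 2.33, Notch2 from 0.46 to 0.76, Jag1 from 0.22 to 0.68, Dll1 from −0.77 to −0.15, Dll4 from −0.63 to −0.18 and Notch1 from −0.42 to −0.07 over 18 alternatives each. DESeq2 raised the genes called from 0 to 21 and the members called from 0 to 1. Library size alone moved the median of all genes to 0.14.

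Hes1 turned positive with voom (0.14), library size alone (0.17), the ribosomal covariate (0.78), equal cluster weights (0.13), without QCM replicate 1 (0.51), without SCM replicate 2 (0.11; the lowest with a single sample left out was −0.29) and with replicates 2 and 3 alone (0.50). The ribosomal covariate turned Atoh1 to 0.18 and Maml3 to −0.079, leaving out QCM replicate 1 turned Atoh1 to 0.16 (−0.55 at the lowest with another single sample left out), and replicates 2 and 3 alone turned Rbpj to −0.012. Same-numbered samples of the media had correlated deviations of 0.36, 0.46 and −0.09 for numbers 1, 2 and 3, and the samples numbered 3 did not correlate best with each other, so the numbers were not taken to pair samples. With the replicate block, 0 members were called over all nuclei, Maml2 was at 1.99, Hes1 turned to 0.070, and 248 gene and cluster pairs were called instead of 0, none of a member.

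Without a low-count filter, 5 member and cluster pairs were called instead of 0. The Atoh1 share difference turned at 500 UMIs (−0.035), at 2000 UMIs (−0.297), without thinning (−0.306) and without SCM replicate 1 (−0.046), and single left-out samples gave −0.046 to 0.301. The Hes1 to Atoh1 ratio ran from −0.071 to 0.53 with single samples left out and turned without SCM replicate 3.

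Between nuclei with and without Atoh1, 111 genes were called, and 55 to 263 with single samples left out, 355 without a filter, 313 without the deepest 6% of nuclei, 172 without cluster 14, 49 in cluster 6 and 27 after thinning. Without the deepest nuclei 1 member (Maml3) was among the 313 of 11162 genes called, and Notch2 (−0.56), Jag1 (−0.23) and Maml2 (−0.57) turned. Rbpj turned in cluster 6 (0.24), and Maml3 turned without a filter (−0.066), after thinning (−0.075) and without QCM replicate 1 (-6.2e-05, up to 0.15 with other single samples left out). The calls of Foxa3, Spink4 and Muc2 were lost without QCM replicate 2, and those of Foxa3 and Spink4 also without QCM replicate 3, SCM replicate 2, SCM replicate 3 or the shared barcodes. The causes were not tested.

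Atoh1 and Dll4 rest on few counts, with 370 and 385 UMIs in all, and the part of depth in this was not tested.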
